A study of Mus musculus with 8 samples.

Results

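Of 302025 regions that held a peak in at least 1 of 4 mouse visual thalamus libraries, 1010 (0.334%) were open in both libraries from mice fed PLX chow and had no peak in either library from mice fed control chow. The assay was ATAC-seq: a transposase, Tn5, inserts adapters where DNA is accessible, and a peak marks a place cut more often than its surroundings. All overlapping peaks of the 4 libraries were merged, and a region was a member when its peak had a −log10 p of at least 5 in PLX chow 1 and in PLX chow 2 while neither control chow list had a peak there. The members were chosen by these values, so the diet difference at them is a description and was not tested. The regions are called gained below, for their place in the peak lists only.

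PLX chow libraries 1 and 2 came from C57Bl/6J mice fed, from postnatal day 20, chow with the compound that the labels spell PLX5562, given to remove microglia; control chow libraries 1 and 2 came from such mice on control chow over the same days. Both diets were sampled at postnatal day 32 as microdissected dLGN, the dorsal lateral geniculate nucleus, where thalamic neurons pass retinal signals on to cortex. The section libraries, which the rule did not use, were KO 1 and KO 2, from knockouts of Fn14, the TWEAK receptor whose gene is Tnfrsf12a, and WT 1 and WT 2, from wild-type littermates. These were made at postnatal day 27 from coronal sections with cortex, hippocampus and dLGN, without chow. Age, tissue and handling differ between dLGN and sections. The brains for sections were flash frozen, and each aliquot held 50000 nuclei. The labels used here give neither sex nor the number of mice behind a library, so replicate spread may be technical.

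Microglia, the resident macrophages of the brain, need signalling through the Csf1r receptor to survive, and inhibitors of that receptor in chow deplete them. An ATAC-seq profile of a tissue sums the accessible DNA of all its cell types. On the X chromosome, the long noncoding RNA gene Firre and the Dxz4 repeat, which lies in the mouse at 4933407K13Rik, are arrays of tandem repeats that bind the looping factor CTCF on the inactive X and help to organise that chromosome in cells that carry one.

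The peak lists held 248989 peaks (PLX chow 1) to 299822 (KO 1), and read depth is unknown. The KO 1 list stopped at a −log10 p of 2.85, against 2.05 in KO 2 and 2.0 in the other libraries. Starts of microglial genes were under a peak for 7 and 7 of 25 genes in PLX chow libraries, against 10 and 13 in control chow libraries. P2ry12, a purine receptor of microglia, held 9 and 6 peaks in PLX chow libraries, against 14 and 13 in control chow libraries, and the Csf1r gene held 3 and 1, against 4 and 5. Cx3cr1, a chemokine receptor gene of microglia, held 1 and 2 peaks in PLX chow libraries, against 3 and 1 in control chow libraries. The strongest peak at Csf1r had a −log10 p of 23.7 and 24.4 in PLX chow libraries, against 22.1 and 23.7 in control chow libraries. That at Cx3cr1 had 12.7 and 25.2, against 11.2 and 16.6, so that strength at Csf1r and Cx3cr1 was not lower in PLX chow libraries. At P2ry12 it was lower, with 76.3 and 64.9 in PLX chow libraries, against 137 and 78.3 in control chow libraries. Inhibitory neuron genes also had fewer starts under a peak, 12 and 16 of 22 in PLX chow libraries, against 17 and 19 in control chow libraries. In such bulk libraries fewer nuclei of a type and less accessible DNA per nucleus cannot be told apart. Starts of thalamic neuron genes were under a peak for 15 and 16 of 20 genes in PLX chow libraries and for 17 and 16 in control chow libraries. In the sections the counts were 17 and 12 in KO libraries and 15 and 15 in WT libraries, so they did not set the dLGN apart. Cortical and hippocampal excitatory neuron genes had slightly more starts under a peak, 11 and 11 of 18 in PLX chow libraries, against 10 and 8 in control chow libraries. The Tnfrsf12a gene held no peak in KO 1 or KO 2 and 1 peak in each of the other 6 libraries.

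Libraries also stood apart by their sex chromosomes. Uty, a histone demethylase gene on the Y, had its strongest peak at a −log10 p of 67.5 and 78.3 in PLX chow libraries, against 204 and 136 in control chow libraries. In the sections it had 188 in KO 1 and 155 in WT 2, and no peak in KO 2 or WT 1. This split of the sections crosses genotype, while in the dLGN the weaker Y peaks fall with PLX chow. Diet and sex-chromosome content therefore cannot be told apart in the dLGN libraries, and results that rest on the X are given with and without it.

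The sequences below show the starts of the genes that hold the gained clusters, and 3 starts that a member covers. They are the 250 bases before a transcription start from RefSeq (GRCm38.p6, the mm10 build), written 5′ to 3′ along the gene's own strand, and capitals mark the bases under a gained region.
Firre, chrX:50635322-50635571, minus strand: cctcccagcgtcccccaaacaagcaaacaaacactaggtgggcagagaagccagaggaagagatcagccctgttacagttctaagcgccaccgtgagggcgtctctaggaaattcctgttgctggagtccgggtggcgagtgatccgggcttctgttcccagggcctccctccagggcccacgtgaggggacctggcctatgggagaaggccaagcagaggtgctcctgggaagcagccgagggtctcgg
4933407K13Rik, chrX:75764700-75764949, minus strand: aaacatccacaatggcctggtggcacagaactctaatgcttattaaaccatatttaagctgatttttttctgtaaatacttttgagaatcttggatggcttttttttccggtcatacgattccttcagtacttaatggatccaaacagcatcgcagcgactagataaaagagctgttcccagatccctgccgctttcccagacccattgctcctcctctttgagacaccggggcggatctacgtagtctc
5430428K19Rik, chrX:6574664-6574913, minus strand: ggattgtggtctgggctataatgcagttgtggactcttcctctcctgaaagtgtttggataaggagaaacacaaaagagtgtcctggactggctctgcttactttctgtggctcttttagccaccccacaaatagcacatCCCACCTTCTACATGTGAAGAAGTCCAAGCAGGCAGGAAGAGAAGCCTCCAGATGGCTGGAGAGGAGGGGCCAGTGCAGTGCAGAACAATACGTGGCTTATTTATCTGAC
Kat2b, chr17:53583876-53584125, plus strand: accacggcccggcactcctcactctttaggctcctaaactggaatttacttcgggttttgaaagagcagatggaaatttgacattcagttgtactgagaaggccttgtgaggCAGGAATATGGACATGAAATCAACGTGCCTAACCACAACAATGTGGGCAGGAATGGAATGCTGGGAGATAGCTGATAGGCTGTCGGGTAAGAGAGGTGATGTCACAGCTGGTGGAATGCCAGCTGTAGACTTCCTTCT
Gm40959, chr13:54874870-54875119, minus strand: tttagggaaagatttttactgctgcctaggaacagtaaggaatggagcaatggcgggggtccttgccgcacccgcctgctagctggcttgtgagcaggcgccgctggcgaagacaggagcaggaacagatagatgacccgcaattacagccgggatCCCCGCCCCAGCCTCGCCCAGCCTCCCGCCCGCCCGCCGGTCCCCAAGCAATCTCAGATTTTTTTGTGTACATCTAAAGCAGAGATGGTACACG
The windows before Firre and 4933407K13Rik are outside any annotated gene and have no capitals, since the gained regions there lie inside the genes and not at their starts. The window of 5430428K19Rik, a noncoding gene within Shroom4, has 110 bases under a member, that of the acetyltransferase gene Kat2b has 138 and that of the noncoding gene Gm40959 has 94. The motifs searched on both strands were a short part of the CTCF motif, AGGNGGC, the AP-1 site TGANTCA, the PU.1/ETS site GAGGAAGT and the GC box GGGCGG. The GC box matched once before 4933407K13Rik and 3 times before Gm40959, and it is present in 32.7% of 32851 such windows. No motif matched before Firre, Kat2b or 5430428K19Rik. The CTCF letters (25% of windows), the AP-1 letters (6.75%) and the PU.1/ETS letters (2.44%) matched in none of the windows printed. In all, 9 windows overlapped a member. Of those not printed, the window of Kdm2b and another window of Gm40959 had 1 match of the CTCF letters each, and the others had none. Bases of the gained regions away from annotated starts were not analysed here.

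Gained regions were fewer than lost ones, and their number lay within the range that the other groupings of the same 4 libraries gave. The mirror rule, open in both control chow libraries and without a peak in either PLX chow library, found 2282 regions (0.756% of the union). Pairing libraries by replicate number gave 1760 regions (0.583%) for PLX chow 1 with control chow 1 and 1072 (0.355%) for PLX chow 2 with control chow 2. The crossed pairing gave 891 (0.295%) for PLX chow 1 with control chow 2 and 2206 (0.73%) for PLX chow 2 with control chow 1. Over both directions the diet split held 3292 regions, the replicate split 2832 and the crossed split 3097. Of the 6 directions, only PLX chow 1 with control chow 2 held fewer regions than the members did. The counts followed control chow 1: directions that include it held 1760 to 2282 regions, and those without it held 891 to 1072. Control chow 1 had the longest dLGN list, 285771 peaks, against 248989 to 267377 in the other dLGN libraries. The part of list length in the difference between gained and lost regions was not tested. At a −log10 p of at least 10 the rule kept 44 members, against 166 regions for the mirror rule and 35 to 122 for the 4 mixed pairs.

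**Figure D1:**
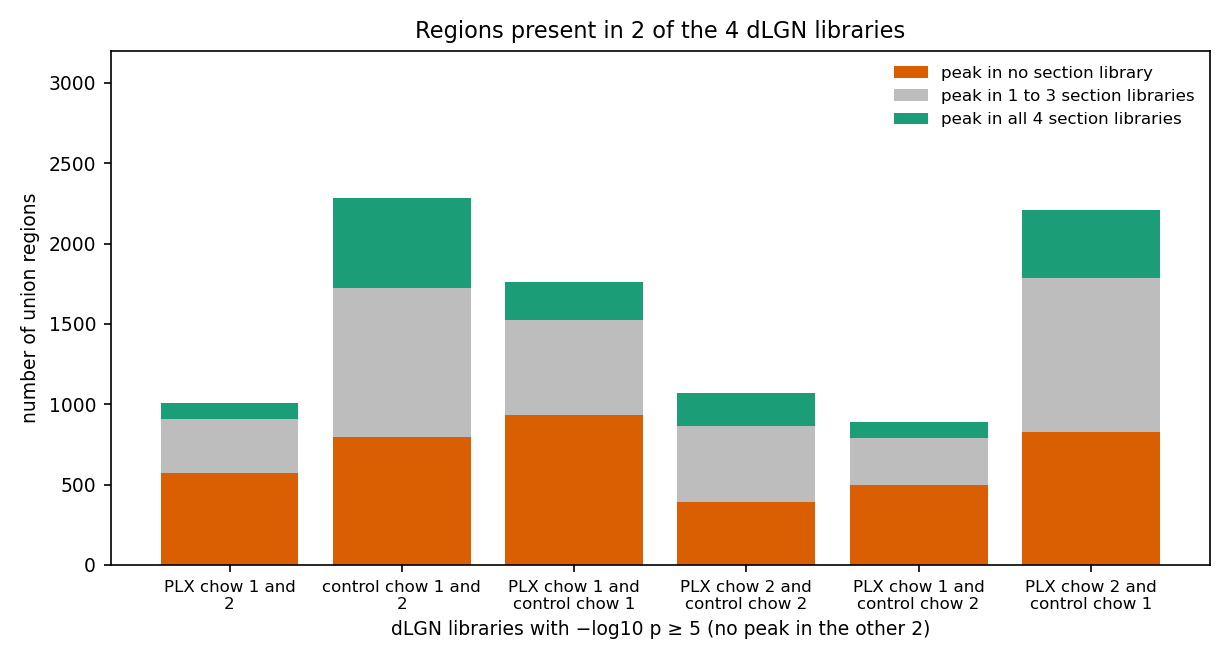
Number of union regions (y axis) with a −log10 p of at least 5 in the named pair of dLGN libraries and no peak in the other pair (x axis), divided by how many section libraries had a peak. The 1010 regions of PLX chow 1 and 2 stand beside 891 to 2282 for the other pairs, and regions without a section peak make up 53.1% to 56.5% of the bars that include PLX chow 1, against 34.8% to 37.5% of the others.

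Most members were weak peaks. Their −log10 p ran from 5.02 to 44.0 in PLX chow 1, with a median of 7.0, and from 5.01 to 60.0 in PLX chow 2, with a median of 6.75. Median fold enrichment over local background was 3.13 in PLX chow 1 and 2.99 in PLX chow 2. The 116045 regions that reached 5 in both PLX chow libraries, whatever the control chow lists held, had medians of 21.8 and 20.4 for −log10 p and of 5.39 and 5.30 for fold, and the members are 0.87% of them. By the lower of their PLX chow values, 500 members lay between 5 and 6, 362 between 6 and 8, 104 between 8 and 10, 37 between 10 and 15 and 7 above. The same few values recurred: 70.7% of members shared their exact −log10 p in PLX chow 1 with another member and 69.3% did in PLX chow 2. Their median width was 242 bp, against 308 bp in the union. The other 5 directions had similar medians, 237 to 252 bp in width and 5.95 to 6.19 in lower value, where the members had 6.08. The summits of both PLX chow libraries lay a median of 20 bp apart.

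The threshold of 5 fell where members were dense. Just inside it were regions in Ldb3 (7.63 in PLX chow 1 and 5.01 in PLX chow 2) and Cog5 (7.0 and 5.02) and a region 18563 bp from Eif3h (5.02 and 7.30). Just outside were a region beside Tmem70 (6.44 and 4.998), one in Plppr4 (11.4 and 4.998) and one in Lrig1 (6.00 and 4.99). A further 3706 regions had a peak in both PLX chow libraries, none in the control chow libraries, and a value below 5 in at least 1. Control chow peaks were near many members, although they did not overlap. The nearest was a median of 2146 bp away, lay within 500 bp for 192 members (19.0%) and within 100 bp for 29.

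**Figure D2:**
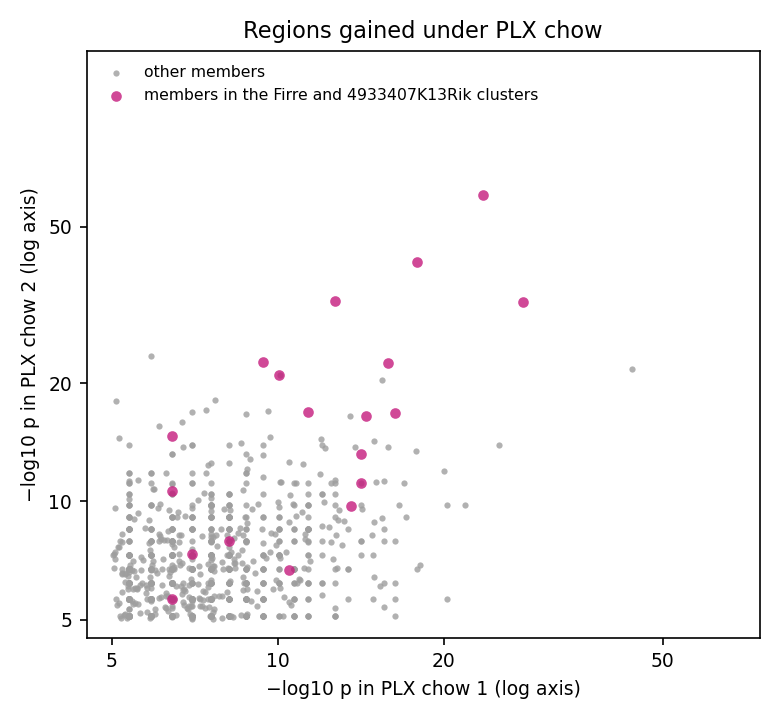
The −log10 p of each of the 1010 members in PLX chow 1 (x axis) and PLX chow 2 (y axis), both on log axes, with the 19 members of the X clusters in colour. Most points sit below 10 on both axes in columns and rows of recurring values, and the clustered members reach 27.9 and 60.0.

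The gained regions clustered at 2 loci on the X. With members joined across gaps of up to 20 kb, only 2 clusters held at least 3, and both are loci known for their role on the inactive X. The first held 14 members over 73.7 kb (chrX:50549780-50623436), of which 12 lay in Firre and 2 in the neighbouring noncoding gene Gm35612. The second held 5 members over 25.9 kb (chrX:75733531-75759397), all inside 4933407K13Rik. No region of the other 5 directions fell in either window. Joined in the same way, regions of PLX chow 2 with control chow 1 formed 2 clusters elsewhere and those of control chow 1 and 2 formed 1. None of these held more than 3 regions. Of the 7 members with a lower value above 15, 5 were in the Firre cluster, and of the 44 at 10 or more, 11 were in one of the clusters. The strongest member of the 4933407K13Rik cluster had a lower value of 13.2. The 2 loci were singled out after their values were seen.

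Single members of the Firre cluster show the pattern. The region at chrX:50605540-50605875 had a −log10 p of 27.9 in PLX chow 1 and 32.2 in PLX chow 2, and the nearest control chow peak was 2347 bp away. In the sections it had 42.3 in KO 2 and 39.3 in WT 1, and no peak in KO 1 or WT 2. The first region of the cluster, at chrX:50549780-50550106 in Gm35612, had 23.6 and 60.0 in the PLX chow libraries, 14.9 in KO 2 and 54.2 in WT 1. Both were thus present in the 2 section libraries without a Uty peak and in neither of the others. Another, at chrX:50572212-50573009 inside Firre, had 17.9 and 40.6 in the PLX chow libraries, 57.2 in KO 2 and 38.3 in WT 1. In the 4933407K13Rik cluster the strongest region, chrX:75759096-75759397, had 14.1 and 13.2 in the PLX chow libraries, 67.2 in KO 2 and 48.9 in WT 1. There the section values stood far above those of the dLGN.

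All 19 clustered members had a peak in KO 2 and in WT 1 and none in KO 1 or WT 2. Their −log10 p had a median of 12.7 (6.44 to 27.9) in PLX chow 1 and 16.5 (5.64 to 60.0) in PLX chow 2, and of 34.9 (14.9 to 67.2) in KO 2 and 39.3 (18.6 to 54.2) in WT 1. Median fold was 4.17 and 4.68 in the PLX chow libraries, 5.97 in KO 2 and 5.89 in WT 1. Since wide section peaks spanned several members, the 19 lay under 16 different peaks in KO 2 and 18 in WT 1. Of the 29 members with a section peak in KO 2 and WT 1 alone, 19 were these, and the other 10 were 1.04% of the autosomal members, close to the 1.02% of all union regions with that pattern.

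**Figure D3:**
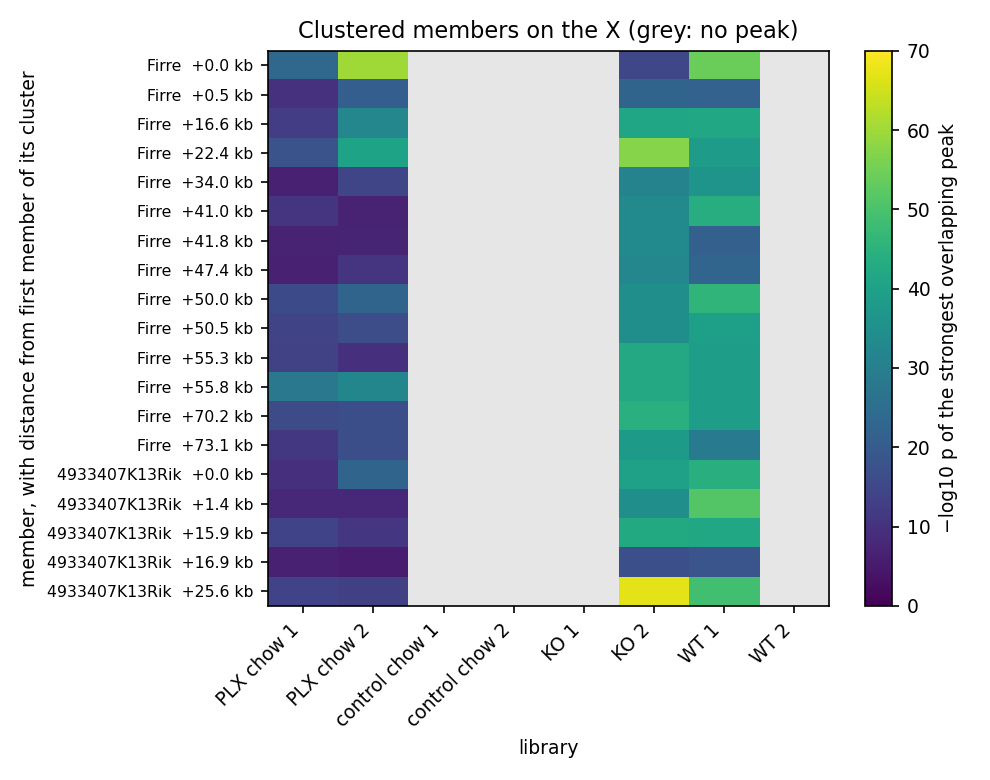
The −log10 p (colour) of the 19 clustered X members (rows, with the distance in kb from the first member of each cluster) in the 8 libraries (columns), where grey means no peak. Every row is filled in PLX chow 1, PLX chow 2, KO 2 and WT 1 and empty in the other 4, the control chow columns by the rule.

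Counting every peak in the windows gave the same division; in the dLGN these counts include the members, which were chosen for it. The Firre window held 31 and 38 peaks in PLX chow libraries, against 8 and 5 in control chow libraries. In the sections it held 1 in KO 1 and 37 in KO 2, against 45 in WT 1 and 2 in WT 2. The 4933407K13Rik window held 6 and 9 peaks in PLX chow libraries, against 0 and 0 in control chow libraries, and 14 each in KO 2 and WT 1, against 0 in KO 1 and WT 2. The start of Firre, whose upstream bases are printed above, was open in all 8 libraries, with a strongest peak over the gene of 387 and 371 in PLX chow libraries, against 462 and 396 in control chow libraries. Xist, the noncoding RNA that coats the inactive X, held 1 and 4 peaks in PLX chow libraries, against 1 and 1 in control chow libraries, and 8 each in KO 2 and WT 1, against 1 each in KO 1 and WT 2.

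Y-linked genes ran the other way. Ddx3y, an RNA helicase gene, had its strongest peak at a fold of 10.4 and 7.15 in PLX chow libraries, against 22.7 and 18.9 in control chow libraries. Eif2s3y, a translation initiation factor gene, had 8.65 and 7.41 in PLX chow libraries, against 16.1 and 15.2 in control chow libraries. Both genes, and Uty and the demethylase gene Kdm5d, had a peak in KO 1 and WT 2 and none in KO 2 or WT 1. The 4 libraries with 31 or more peaks in the Firre window were thus those with weak or no peaks at Ddx3y and Eif2s3y. These genes were chosen after their values were seen.

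**Figure D4:**
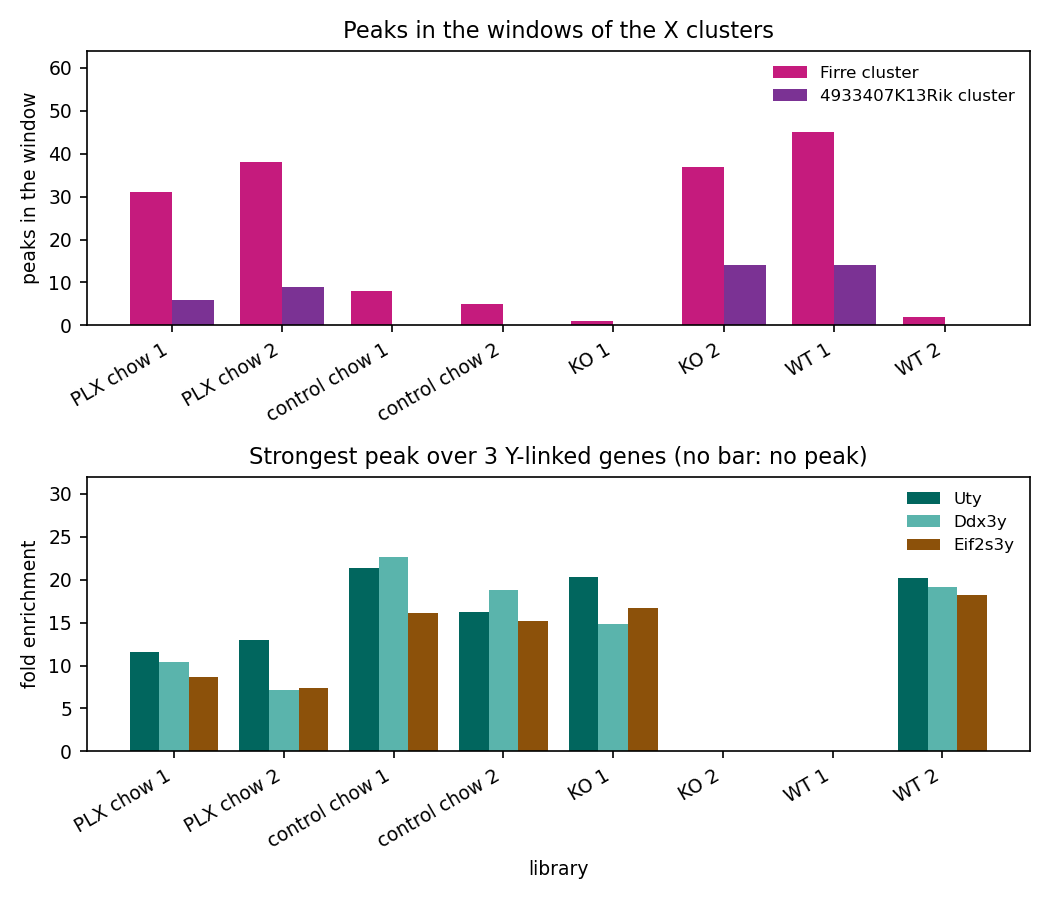
Upper panel, number of peaks (y axis) in the windows of the X clusters by library (x axis); lower panel, fold enrichment of the strongest peak over the Y-linked genes Uty, Ddx3y and Eif2s3y. Libraries with many peaks in the Firre window (31 to 45) have low or no Y bars, and those with 1 to 8 have the high ones.

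Regions chosen from the sections alone gave no comparison in the dLGN that was free of the members. In the union of the 4 section lists, 65 X regions reached 5 in KO 2 and WT 1 and had no peak in KO 1 or WT 2, and 16 of them overlapped a member, whose dLGN state the rule had fixed. Of all 65, 50.8% and 60% had a peak in PLX chow libraries, against 30.8% and 20% in control chow libraries. Both PLX chow libraries and no control chow library had a peak at 17 of the 65, and the reverse held at 0. Of the other 49, 34.7% and 46.9% had a peak in PLX chow libraries, against 40.8% and 26.5% in control chow libraries, so that the diets overlapped. Both PLX chow libraries and no control chow library had a peak at 1 of the 49, and the reverse held at 0. The 65 include regions whose state the rule had fixed, and the 49 leave out the regions that met it, so neither set can decide the question. The match between clustered members and the sections was thus seen at the 2 loci, and for other X regions of that section pattern it was neither shown nor excluded.

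The X as a whole held 51 members (5.05%), against 2.02% of the 116045 regions and 1.77% to 3.13% of the other 5 directions. That is 2.18 members per 100 such regions, against 0.54 (chromosome 7) to 1.11 (chromosome 5) on the autosomes. Of the 51 X members, 19 lay in the 2 clusters, and the X share and rate include them. Of the X members outside the clusters, the strongest was a region 7416 bp from Rtl9 (chrX:143112636-143112856), a gene derived from a retrotransposon, with 12.0 and 13.9 in the PLX chow libraries and no section peak. In all, 20 X members had no section peak. A single member was on the Y, 23823 bp from Gm52481, with 6.44 and 5.12 in the PLX chow libraries and 6.56 in KO 2. Without the sex chromosomes 958 members remained, of 297277 autosomal union regions.

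Autosomal members were scattered, and 407 of the 958 had a peak in at least 1 section library. The strongest of them, chr6:31803303-31803545, lay 239487 bp from Podxl, a sialomucin gene, and had 44.0 and 21.8 in the PLX chow libraries without a peak in any section library. A region 14321 bp from Tgfbr1 (chr4:47338749-47339052), a receptor for TGF-beta, a cytokine that maintains microglia, had 25.3 and 13.9. One inside Serpinb9 (chr13:33000814-33001105), an inhibitor of granzyme B, had 15.0 and 14.3, and one 18061 bp from the pigment enzyme gene Tyrp1 had 12.2 and 13.7. None of these had a section peak, and their nearest control chow peaks were 3055 to 5899 bp away. The member 930 bp from Sall3, a zinc finger factor, had 15.5 and 20.3 in the PLX chow libraries, 3.55 in KO 2 and 12.1 and 11.2 in the WT libraries. It lay 209 bp from a control chow peak.

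In the sections, 571 members (56.5%) had no peak at all, 150 had one in 1 library, 104 in 2, 84 in 3 and 101 (10.0%) in all 4. Of the 116045 regions, 14.9% had none and 58.6% had a peak in all 4. Of all 302025 union regions, 40.1% had none and 29.8% had a peak in all 4. Members thus had section peaks less often than either set. They were also weaker in the dLGN than the 116045 regions, and the part of peak strength in this was not tested. The share without a section peak also followed PLX chow 1: it was 56.5% for the members, 53.1% and 55.6% for the pairs of PLX chow 1 with control chow 1 and 2, and 34.8% to 37.5% for the 3 pairs without PLX chow 1. Leaving out the sex chromosomes gave 57.5%. Members without a section peak had a median lower value of 5.96, against 6.36 for those with a peak in all 4.

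Between genotypes, no difference in how many members were open could be shown with 2 libraries each. A peak was present at 28.6% and 25.6% of members in KO libraries, against 24.7% and 21.5% in WT libraries, without overlap. The KO mean was 27.1 ± 2.10% and the WT mean 23.1 ± 2.24% (SD, 2 libraries each), a difference of 4.06 points with a 2-sided exact permutation p of 0.333, the smallest that 2 libraries against 2 can give. On the autosomes the difference was 4.02 points. Over the whole union it was 2.32 points, in the same direction, with 44.9% in KO and 42.6% in WT. The KO lists were also longer, with 299822 and 299816 peaks, against 256323 and 261201 in WT libraries. The part of list length in these shares was not tested. A peak in both KO libraries and neither WT library was found at 22 members (2.18%), against 2.12% of the union, and the reverse at 4 (0.396%), against 1.15%.

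The members with a peak in every section library were led by a region in Col11a1 (chr3:114031063-114031300), which encodes a fibrillar collagen chain. It had 15.8 and 13.7 in the PLX chow libraries, 73.0 and 25.7 in KO libraries and 9.85 and 3.89 in WT libraries, and a control chow peak lay 100 bp away. The KO and WT values did not overlap there. A region in Dclk1, a microtubule-associated kinase gene, had 10.8 and 11.1 in the PLX chow libraries, 16.8 and 11.9 in KO libraries and 11.9 and 11.7 in WT libraries. One in Ank, a pyrophosphate transport gene, had 10.7 and 9.87 in the PLX chow libraries, 22.1 and 13.4 in KO libraries and 20.4 and 8.86 in WT libraries, so that the genotypes overlapped. The others were 927 bp from the lysosomal phospholipase gene Pla2g15, with 11.1 and 12.5 in the PLX chow libraries, and 260196 bp from Prmt6, an arginine methyltransferase gene, with 10.7 and 9.80. Both had section values of 3.5 to 11.6.

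Gained regions seldom sat at promoters, as was the case for the other groupings of the dLGN libraries. On the chromosomes with start positions, 34 of 968 members (3.51%) lay within 1 kb of a start, against 13% of the 116045 regions, and 7 (0.723%) covered one, against 10.4%. In the other 5 directions the shares were 3.20% to 5.41% near a start and 0.464% to 1.77% covering one. The covered starts were those of Kat2b, Kdm2b, Acp5 and Spx and of noncoding genes, 3 in number. Those of Kat2b and Acp5 lay inside the genes, where the members were 17308 and 3885 bp from the nearest end of the gene. The member over the Kat2b window printed above had 6.65 and 6.90 in the PLX chow libraries and no section peak. At Kdm2b, a histone demethylase gene, the member had 7.52 and 5.12 in the PLX chow libraries, 7.31 and 10.6 in KO libraries and 5.18 and 5.94 in WT libraries. At Acp5, the tartrate-resistant phosphatase of osteoclasts and macrophages, it had 7.0 and 5.12 in the PLX chow libraries and 8.41 in KO 1, with a control chow peak 108 bp away. These starts were all covered by weak peaks, with a lower value of at most 6.75.

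Distance to a gene end was taken from a region's centre to either end of a protein-coding gene, so it includes ends where genes start. Within 1 kb of such an end lay 4.55% of members, against 12.0% of the 116045 regions and 6.97% of the union. The strongest of them were those at Sall3, Col11a1 and Pla2g15 above, one 336 bp from Mpdz, a multi-PDZ scaffold gene, and one in Abhd5, the activator of a triglyceride lipase. The Mpdz region had 10.7 and 11.1 in the PLX chow libraries, 5.61 in KO 1 and 5.18 in WT 1. The Abhd5 region had 10.0 and 9.99 in the PLX chow libraries, 9.57 and 4.51 in KO libraries and 7.80 in WT 1. Near other starts, Trim21, an intracellular antibody receptor, had a member 954 bp away with 14.8 and 8.23 and no section peak. Rpl34, a ribosomal protein gene, held one with 12.9 and 9.50. The Rpl34 member had 7.63 and 7.68 in KO libraries, 370 in WT 2 and no peak in WT 1, and a control chow peak lay 152 bp away.

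Inside protein-coding genes lay 525 members (52.0%), against 55.1% of the 116045 regions, another 227 (22.5%) were within 50 kb of one, and 258 (25.5%) were farther away, against 22.2%. The genes that held members had a median length of 162 kb, against 123 kb for the 116045 regions and 134 to 163 kb for the other 5 directions. The 752 members within reach were spread over 684 genes, of which 628 had a single member. Schip1, which encodes a partner of the merlin tumour suppressor, had 5, the most of any gene. Adgrb3, an adhesion receptor of synapses, and Tenm3, a teneurin of visual wiring, had 4 each. Pls3, Mpdz, Pcdh15, Lrp1b and Rbfox1 had 3 each, the first of these through the 4933407K13Rik cluster beside it. Schip1, Tenm3 and Pcdh15 members had no section peak, whereas all 3 at Rbfox1, a neuronal splicing factor, had at least 1.

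The Schip1 members ranged from a lower value of 5.12 to 9.40 over a gene of 562 kb with 48 regions of the 116045. The strongest Adgrb3 member had 10.1 and 11.2 in the PLX chow libraries, 277 bp from a control chow peak. The strongest Tenm3 member had 7.57 and 7.92. The 3 in Pcdh15, a cadherin known from hair cells, had lower values of 7.32 to 9.80. Apart from Pls3, the genes with 3 or more members that are named here are 164 to 2058 kb long. The number of members did not follow length among them: Mpdz (164 kb) and Lrp1b (2058 kb) had 3 each.

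Genes of the lists for cell types and pathways held few members. Of 345 matched genes in 15 lists, 13 had a member, 16 members in all, or 0.632 per 100 of their regions among the 116045, against 0.833 over all protein-coding genes. The microglial list of 36 genes had 1 member, at Sall3, against 12 regions open only in control chow libraries, among 300 union regions. Over all protein-coding genes the same counts were 752 members, against 1699 regions, among 229771 union regions. The 1 microglial member is 0.877 per 100 of the list's 114 regions among the 116045, close to the 0.833 over all protein-coding genes. No member fell at a gene of the peripheral immune, endothelial and mural, cortical and hippocampal excitatory, inhibitory neuron, activity-regulated, clock, interferon or housekeeping lists. Each of these lists held few of the 116045 regions, from 35 (peripheral immune) to 267 (cortical and hippocampal excitatory). Of 15 peripheral immune genes with a start position, 1 and 1 had a peak over it in PLX chow libraries, against 3 and 2 in control chow libraries.

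In the list of TWEAK, TNF receptor and NF-kB genes, Nfkb1 and Tnfrsf1a had 3 members between them. The gene Nfkb1, which encodes the p50 subunit, held one with 7.69 and 18.1 in the PLX chow libraries and one with 10.3 and 7.42, both without a section peak. The TNF receptor gene Tnfrsf1a held one with 8.55 and 8.55 in the PLX chow libraries, 5.80 and 4.28 in KO libraries and 6.17 and 4.35 in WT libraries. Of the 26 genes listed, these were the only 2, and their members were open in PLX chow at 2.75 per 100 regions, a rate that rests on 3 regions. The synapse list had 7 members at Dlg2, Nlgn1, Nlgn3, Shank1 and Shank2. That is 1.21 per 100 of its 577 regions, against 0.833 over all protein-coding genes. The strongest, in Dlg2, which encodes a postsynaptic scaffold, had 11.4 and 7.92, and one in the neuroligin gene Nlgn1 had 7.0 and 13.9, both without a section peak.

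Glial and thalamic lists had single regions. Mbp, a major myelin protein gene, had a member with 8.13 and 6.77 in the PLX chow libraries, 344 bp from a control chow peak. Acsbg1, an acyl-CoA synthetase of astrocytes, had one with 5.37 and 9.16, and Lhfpl3, listed for oligodendrocyte precursors, one with 5.12 and 7.67. None of these had a section peak. Among thalamic genes, Necab1, a calcium-binding protein gene, had a member with 7.57 and 7.32 in the PLX chow libraries, 7.24 in KO 1 and 4.27 in WT 2, and a member with 7.0 and 5.04 lay 42331 bp from Ntng1, a netrin-G gene of thalamic axons. No hairpin of the 1005 annotated microRNAs overlapped a member.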

How the data were processed

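ATAC-seq peak lists of 8 libraries, 2 per group, were used as deposited. Per the submitters' processing notes and the labels, paired-end reads went through the ENCODE ATAC-seq pipeline with build mm10, a multimapping setting of 0 and a p of 0.01 for calling peaks, and the file names record a limit of 300000 peaks. The notes name deepTools 3.5.0 without its role. Which aligner and peak caller were run is not given in the sources used. Each library has its own list. The deposited lists give each peak's fold (a ratio over local background), −log10 p-value, −log10 q-value and a score, which is 10 times the −log10 p capped at 1000. These are the authors' values, used to describe, rank and filter peaks. No counts were used, so depth is unknown and no counting interval is given for a peak.

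Peaks sharing at least 1 bp were merged over the 4 dLGN lists. A region takes the strongest peak overlapping it in each library. Each region's centre was matched to the closest protein-coding gene (21887 in RefSeq, GRCm38.p6) up to 50 kb away; starts came from the RefSeq promoter table, whose windows lack chromosome 18. Named regions were the 10 strongest, 3 either side of the threshold, up to 3 per list, 5 with and 5 without section peaks, the 5 strongest at gene ends and genes with most members. The rule, members and lists were chosen with earlier results of these data known. Only the merging of peaks, the rule for members and the search for overlapping and nearest peaks were tested on simulated data. Python 3.11.15, pandas 2.3.3 and scipy 1.17.1 were used.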

Additional observations from a re-analysis of the deposited data

How the results depend on the processing

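The count of 1010 became 3478 with a −log10 p of at least 3, 44 with at least 10, 2257 with a −log10 q of at least 2 and 1536 with peaks reduced to 200 bp around summits; leaving out 1 dLGN library at a time gave 2887 to 7366, since fewer lists must then hold or lack a peak. The share in all 4 sections (10.0%) was 6.82% with at least 10, 8.07% without control chow peaks within 500 bp, 27.1% with 200-bp summits and 6.26% to 17.2% when 1 library was left out. The share in no section (56.5%) was 38.6%, 59.8% and 42.8% under the same 3 changes, 60.9% with every list cut to the shortest and 46.3% to 66.1% without 1 library. The share inside a gene (52.0%) was 38.6% with at least 10 and 52.0% to 56.9% without 1 library. Among the counts that leave out 1 library, 2887 is without control chow 2 and 7366 without PLX chow 1. Beyond what these alternatives change by construction, the cause was not tested. Autosomes only, added after seeing the data, gave 958 regions. No paired analysis was possible because the count comes from no test and the labels do not say that equal numbers share mice. With 2 libraries per group the smallest exact p is 0.333.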

Other observations

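Of 329842 regions in the union of the section lists, 931 had a −log10 p of at least 5 in KO 1 and WT 2 and no peak in KO 2 or WT 1. Of these, 9 were on the X and 8 on the Y, and 1 overlapped a member. Of the 8 on the Y, 5 and 6 had a peak in PLX chow libraries, against 7 and 7 in control chow libraries. Regions shared by KO 1 and KO 2 alone numbered 4992, of which 39 were on the X and 5 overlapped a member. Those shared by WT 1 and WT 2 alone numbered 812, of which 24 were on the X and 0 overlapped a member. The KO lists were longer, with 299822 and 299816 peaks, against 256323 and 261201 in WT libraries. The part of list length in these counts was not tested.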
